A study of Mus musculus with 31 samples.

Results

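In the mouse hippocampus, 6 microRNAs were chosen by their lower counts after exercise or corticosterone in wild-type (WT) mice: mmu-miR-3084-3p, mmu-miR-331-3p, mmu-miR-490-3p, mmu-miR-339-5p, mmu-miR-199b-5p and mmu-miR-2137. The prefix mmu, for mouse, is left off below where the name is unambiguous. They are 6 of the 1966 mature microRNAs counted, and all 6 were measured in each of 31 small RNA libraries. Tissue was the right hippocampus, from C57Bl/6 J mice. Mice were either WT or without the serotonin transporter (5-HTT; KO), the membrane protein that takes serotonin back up from the extracellular space. There were 5 WT-exercise, 6 WT-corticosterone and 7 WT-water libraries, and 5 KO-exercise, 2 KO-corticosterone and 6 KO-water libraries. Mice received 4 weeks of exercise or of corticosterone, the glucocorticoid that rodents release under stress, or water under standard housing. The sex and age of the mice, the form of exercise and the dose of corticosterone are not given in the labels used here. The tissue was sampled in bulk, so fewer cells of a type and less RNA per cell cannot be told apart.

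MicroRNAs are short RNAs cut from the arms of a hairpin precursor. Either arm can be loaded into an Argonaute protein, and the loaded strand pairs through its seed with target mRNAs, which are then translated less or degraded. Mature levels depend on transcription of the host locus, on cutting of the hairpin, on the choice of arm and on the stability of the loaded strand. In human cells, miR-331-3p has been reported to repress the receptor kinase ERBB2, miR-339-5p the amyloid-processing protease BACE1, and miR-199b-5p the Notch effector HES1.

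The mature sequences are shown because the 5 microRNAs with one in the reference share no seed: the seed, bases 2 to 8 from the 5′ end, is in capitals. RefSeq (GRCm38.p6) held a mature sequence for 5 of the 6, and miR-199b-5p is named only.
miR-3084-3p: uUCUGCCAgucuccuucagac
miR-331-3p: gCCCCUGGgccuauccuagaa
miR-490-3p: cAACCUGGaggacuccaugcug
miR-339-5p: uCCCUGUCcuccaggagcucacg
miR-2137: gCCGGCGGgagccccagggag
No other measured microRNA with a sequence in the table had the seed of any of these 5. For 3 hairpins the opposite arm was counted deeply enough to be set against the picked arm, and those opposite arms read as follows.
miR-3084-5p: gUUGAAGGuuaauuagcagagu
miR-331-5p: cUAGGUAUggucccagggaucc
miR-199b-3p: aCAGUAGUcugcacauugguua
The sequence of miR-199b-3p is identical to that of miR-199a-3p, made from other loci, so the division of reads between these names is uncertain.

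In GRCm38, miR-3084-3p is encoded at 2 places on the minus strand of chromosome 19, at chr19:24942240-24942260 and chr19:60774334-60774354, by hairpins of identical sequence. Their hairpins lie in introns of Cbwd1 and of Eif3a, a translation initiation factor subunit, and 68 of the 69 bases of each also overlap an annotated small nucleolar RNA, Gm23658 in Cbwd1 and Snora19 in Eif3a. MiR-331-3p (chr10:93963783-93963803, minus strand) lies in an exon of Vezt, an adherens junction protein, that holds untranslated sequence in the annotation. MiR-490-3p (chr6:36421800-36421821, plus strand) lies in an intron of the muscarinic receptor gene Chrm2, miR-339-5p (chr5:139369708-139369730, minus strand) in an intron of 3110082I17Rik and miR-2137 (chrX:72992113-72992133, plus strand) in an intron of Zfp185. The hairpin of miR-199b-5p (chr2:32318460-32318569, plus strand) lies in an intron of Dnm1, the neuronal dynamin gene, on the opposite strand. Host mRNAs were not measured. The 1 other measured microRNA within 10 kb of any of these hairpins, miR-3154 near miR-199b, had 4 counts in all 31 libraries together.

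Total counts per library were 1411350 to 2279300 in WT-exercise, 1564411 to 2409803 in WT-corticosterone and 1639753 to 4052174 in WT-water. They were 1011285 to 3116879 in KO-exercise, 1668550 to 2352999 in KO-corticosterone and 1277046 to 3254739 in KO-water. Levels are CPM, counts scaled to a common library total after TMM scaling, which sets the bulk of the microRNAs level between libraries. Summed over the 31 libraries, the counts were 1009 for miR-3084-3p, 1766 for miR-331-3p, 1840 for miR-490-3p, 9141 for miR-339-5p, 1054 for miR-199b-5p and 495 for miR-2137. Counts in a single library went as low as 1 for miR-2137, so its levels carry the largest counting error of the 6. Only microRNAs were counted, so the missing transporter was not checked in the knockout libraries. The 6 KO-water libraries fall into 2 sets by the deposited tables: KO-water 3, 4 and 6 are in the table that sets KO-water against WT-water, and KO-water 1, 2 and 5 are not. These sets differed for most of the 6 microRNAs, so each knockout result is given against all 6 KO-water libraries and against each set. The labels give no reason for the division.

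All 6 microRNAs were lower in both treated wild-type groups, and these values chose them, so they are given as a description with no test. The fold changes lay between -1.14 and -2.15 on the log2 scale with exercise and between -1.28 and -2.12 with corticosterone. The median of the 6 was -1.48 with exercise, where the median over all 553 microRNAs tested was 0.04, and -1.45 with corticosterone, where that of all 547 was 0.06. In the fits over all microRNAs, 6 of 6 were called lower (adjusted p below 0.05) with exercise, where 12.7% of all those tested were lower and 19.9% higher, and 6 of 6 with corticosterone, where 17.0% were lower and 24.9% higher. With exercise the calls of miR-490-3p and miR-2137 did not hold without single WT-exercise libraries: miR-490-3p without libraries 3, 4 or 5 and miR-2137 without libraries 3 or 5. Every treated library lay below every WT-water library for 2 of the 6 with exercise (4.52% of all tested) and for 4 of the 6 with corticosterone (5.67%).

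**Figure D1:**
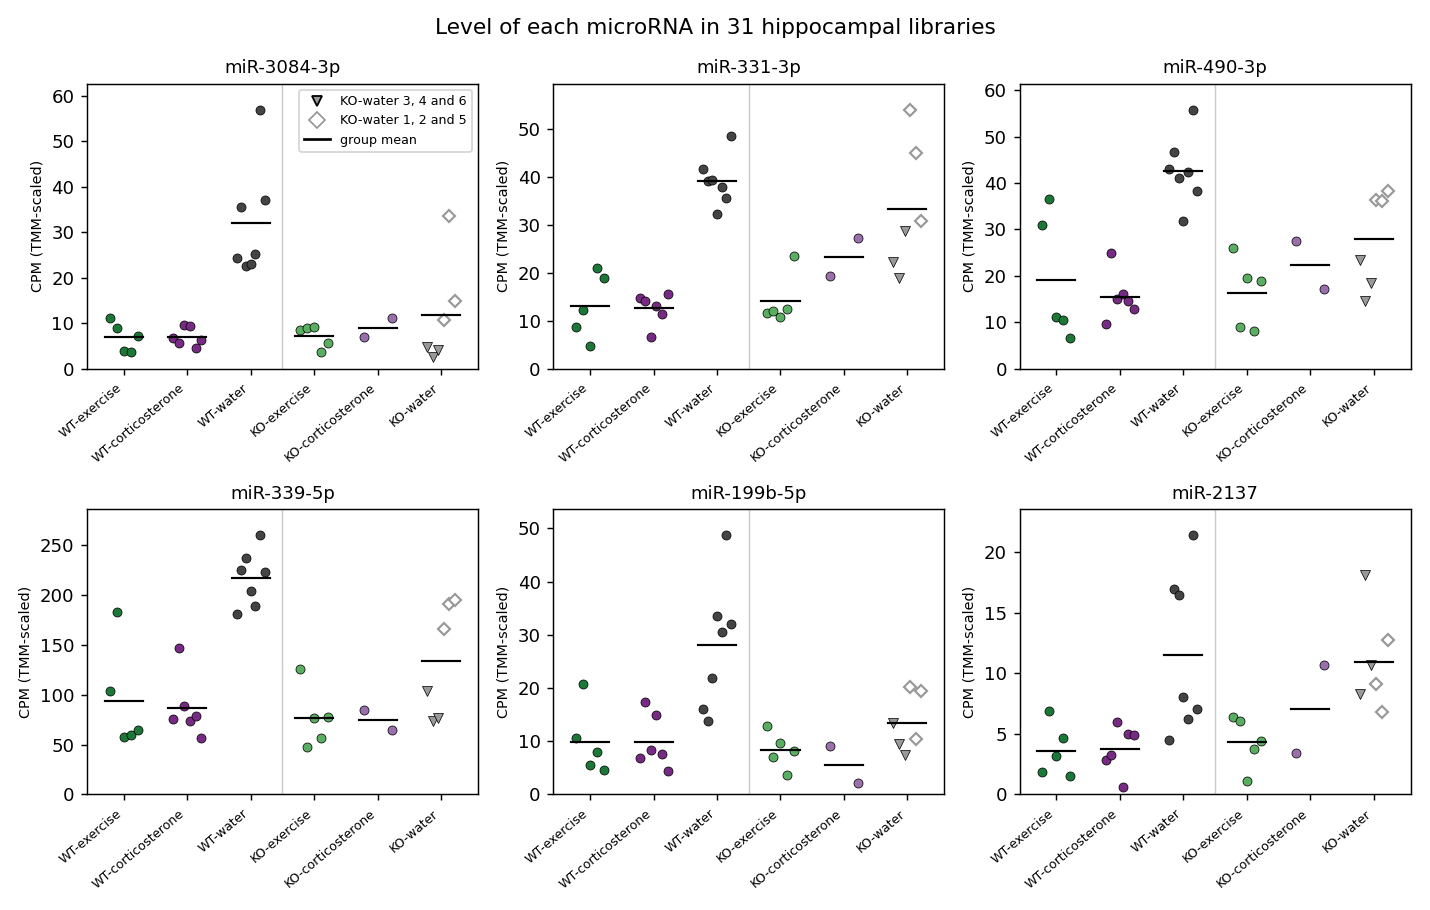
Level of each microRNA (y axis, TMM-scaled CPM from 0) in each of the 31 libraries by group (x axis), with black bars for group means. Filled triangles are KO-water 3, 4 and 6 and open diamonds KO-water 1, 2 and 5. For miR-3084-3p the WT-water libraries (22.6 to 57.0 CPM) stand above every WT-exercise and WT-corticosterone library, and the open diamonds stand above the triangles.

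MiR-3084-3p had the log2 fold changes farthest from 0 among the 6. mmu-miR-3084-3p measured 11.2, 9.01, 3.97, 3.78 and 7.15 CPM in the WT-exercise libraries, 4.51 to 9.62 CPM with a median of 6.54 in WT-corticosterone, and 22.6 to 57.0 CPM with a median of 25.2 in WT-water. No treated library reached the lowest WT-water library. The log2 fold change was -2.15 ± 0.33 (SE) with exercise and -2.12 ± 0.27 with corticosterone.

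MiR-331-3p likewise did not overlap between treated and untreated wild-type libraries. The level of mmu-miR-331-3p was 8.68, 12.2, 4.77, 21.02 and 18.9 CPM in WT-exercise, 6.62 to 15.6 CPM with a median of 13.6 in WT-corticosterone, and 32.3 to 48.7 CPM with a median of 39.2 in WT-water. The log2 fold change was -1.497 ± 0.29 (SE) with exercise and -1.57 ± 0.20 with corticosterone.

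MiR-490-3p and miR-339-5p were lower in every WT-corticosterone library than in any WT-water library, while with exercise 1 library of 5 overlapped the WT-water range for each. mmu-miR-490-3p measured 31.01, 36.6, 11.1, 10.5 and 6.63 CPM in WT-exercise, 9.68 to 24.9 CPM with a median of 14.8 in WT-corticosterone, and 31.8 to 55.8 CPM with a median of 42.3 in WT-water. mmu-miR-339-5p measured 103.6, 183, 57.2, 60.1 and 64.3 CPM in WT-exercise, 56.3 to 146.8 CPM with a median of 77.2 in WT-corticosterone, and 181 to 260.04 CPM with a median of 224 in WT-water. WT-exercise 2 was the overlapping library for both microRNAs. The log2 fold changes of miR-490-3p were -1.14 ± 0.35 (SE) with exercise and -1.40 ± 0.20 with corticosterone, and those of miR-339-5p were -1.20 ± 0.26 and, with corticosterone, -1.28 ± 0.18.

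MiR-199b-5p and miR-2137 varied more between WT-water libraries, and their ranges overlapped under both treatments. mmu-miR-199b-5p measured 10.5, 20.7, 5.56, 7.99 and 4.59 CPM in WT-exercise, 4.47 to 17.4 CPM with a median of 7.97 in WT-corticosterone, and 13.8 to 48.7 CPM with a median of 30.5 in WT-water. Its log2 fold change was -1.47 ± 0.39 (SE) with exercise and -1.45 ± 0.33 with corticosterone. mmu-miR-2137 measured 1.86, 6.89, 3.18, 4.62 and 1.53 CPM in WT-exercise, 0.622 to 6.01 CPM with a median of 4.10 in WT-corticosterone, and 4.52 to 21.4 CPM with a median of 8.07 in WT-water. In WT-water it fell into 3 libraries between 16.5 and 21.4 CPM and 4 between 4.52 and 8.07 CPM. The log2 fold change of miR-2137 was -1.57 ± 0.48 (SE) with exercise and -1.46 ± 0.44 with corticosterone.

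The choice carried no numerical threshold. Of the 53 microRNAs called lower under both wild-type treatments, the 6 ranked 1, 2, 3, 8, 10 and 13 by the mean of their 2 log2 fold changes. MiR-339-5p, the last of them, averaged -1.24, between miR-497a-3p at -1.25 and let-7j at -1.18, which were not picked. The 2 treatments share the WT-water libraries, so the likeness of their fold changes is not independent evidence. Set against each other, WT-exercise and WT-corticosterone differed by log2 fold changes of 0.00 to 0.30 for the 5 of the 6 that could be tested, with SEs of 0.33 to 0.44. In that comparison edgeR called 0 of 521 microRNAs, and 20 had an unadjusted p below 0.05, none of them among the 5. MiR-2137 was too low to be tested there.

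The 2 code letters that the labels give the samples, G and H, have no stated meaning and were checked as a possible batch. Within letter G, with 8 libraries, the exercise fold changes of the 6 lay below 0, from -0.60 for miR-490-3p to -2.09 for miR-331-3p. Only miR-331-3p and miR-3084-3p were called there, 2 of 6 where 0.522% of 575 microRNAs were called lower, and miR-490-3p, miR-339-5p, miR-199b-5p and miR-2137 were not. Within letter H, with 4 libraries, they lay between -0.999 for miR-331-3p and -3.01 for miR-3084-3p, with 5 of 6 called where 17.9% of 554 were, the exception being miR-2137. Letter H held 1 WT-corticosterone library, and within letter G, with 10 libraries, the corticosterone fold changes lay between -1.10 and -1.88, with 6 of 6 called where 11.8% of 536 were.

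Knockout mice were used in neither wild-type contrast, so KO-exercise against KO-water tests whether the 6 were also lower with exercise there. None of the 6 was called: 0 of 6 against 0.956% of 523 microRNAs tested called lower (edgeR quasi-likelihood, Benjamini-Hochberg over all 523). None was called higher either, where 3.06% were. At an unadjusted p below 0.05 there were 3 of the 6, and the share of all 523 at that threshold is not given here. DESeq2 called 2, where it called 3.63% of the 523 lower, and limma-voom 0, where it called 0.956%. All 6 fold changes were below 0, with a median of -0.74 beside -0.01 over all those tested. The share of all 523 below 0 is not given here. The median of the 6 was -1.21 against KO-water 1, 2 and 5 alone, with 6 below 0. Against KO-water 3, 4 and 6 alone it was -0.30, with 5 below 0. KO-exercise lay wholly below KO-water for 1 of the 6, miR-2137, where 2.68% of all tested did so.

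MiR-331-3p came closest to the threshold in the knockout. It measured 11.7, 12.1, 10.9, 12.4 and 23.5 CPM in KO-exercise, and 22.3, 19.0 and 28.7 CPM in KO-water 3, 4 and 6 beside 54.1, 44.99 and 30.9 CPM in KO-water 1, 2 and 5. KO-exercise 5 is the 1 library that reached the KO-water range. The log2 fold change was -1.17 ± 0.32 (SE), with an adjusted p of 0.0593 (edgeR). DESeq2 called it, with a log2 fold change of -1.24 and an adjusted p of 0.00492.

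MiR-2137 measured 6.39, 6.03, 1.14, 3.72 and 4.39 CPM in KO-exercise, and 8.31, 18.1 and 10.6 CPM in KO-water 3, 4 and 6 beside 9.09, 6.80 and 12.7 CPM in KO-water 1, 2 and 5. Its KO-exercise libraries all lay below its KO-water libraries. The log2 fold change was -1.29 ± 0.39 (SE), with an adjusted p of 0.103 (edgeR).

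The other 4 overlapped between KO-exercise and KO-water. MiR-3084-3p measured 8.52, 9.05, 9.14, 3.72 and 5.65 CPM in KO-exercise, and 4.68, 2.59 and 4.17 CPM in KO-water 3, 4 and 6 beside 10.7, 33.5 and 15.0 CPM in KO-water 1, 2 and 5. The KO-exercise libraries of this microRNA thus lay below KO-water 1, 2 and 5, and 4 of the 5 lay above KO-water 3, 4 and 6. Its log2 fold change was -0.70 ± 0.57 (SE; edgeR adjusted p = 0.597).

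MiR-490-3p measured 26.1, 9.05, 19.4, 8.07 and 18.8 CPM in KO-exercise, and 23.4, 14.6 and 18.5 CPM in KO-water 3, 4 and 6 beside 36.4, 36.1 and 38.2 CPM in KO-water 1, 2 and 5. MiR-339-5p measured 126, 47.2, 76.6, 57.1 and 77.8 CPM in KO-exercise, and 103.4, 73.2 and 76.4 CPM in KO-water 3, 4 and 6 beside 166, 191 and 195 CPM in KO-water 1, 2 and 5. MiR-199b-5p measured 12.8, 7.04, 9.72, 3.72 and 8.16 CPM in KO-exercise, and 13.5, 9.48 and 7.41 CPM in KO-water 3, 4 and 6 beside 20.2, 10.5 and 19.4 CPM in KO-water 1, 2 and 5. For miR-490-3p and miR-339-5p every KO-exercise library lay below KO-water 1, 2 and 5, and the KO-exercise range took in that of KO-water 3, 4 and 6. The log2 fold changes were -0.72 ± 0.35 for miR-490-3p (SE; edgeR adjusted p = 0.327), -0.75 ± 0.33 for miR-339-5p (0.289) and -0.65 ± 0.35 for miR-199b-5p (0.379).

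Within code letter G the exercise fold changes of the 6 lay between -0.38 and -1.55 and within letter H between -0.78 and -1.58. EdgeR called 0 of the 6 in either. It called 0 of 539 microRNAs lower and 3 higher in letter G, and 0 of 564 lower and 1 higher in letter H. In each letter 1 of the 6 had an unadjusted p below 0.05, and the share of all microRNAs that did is not given here.

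The call depended on which KO-water libraries were used. Against KO-water 1, 2 and 5 alone, 4 of the 6 were called lower with exercise, where 11.2% of 544 microRNAs tested were: miR-331-3p at -1.56 (edgeR adjusted p = 0.00637), miR-339-5p at -1.24 (0.0116), miR-3084-3p at -1.44 (0.0285) and miR-490-3p at -1.13 (0.0348). Also against KO-water 1, 2 and 5, miR-2137 (-1.18) and miR-199b-5p (-0.998) had edgeR adjusted p-values of 0.0715 and 0.0771. KO-exercise lay wholly below KO-water 1, 2 and 5 for 5 of the 6, where 15.4% of all tested did. Against KO-water 3, 4 and 6 alone, 1 of the 6 was called lower, where 16.9% of 540 were: miR-2137 at -1.53 (edgeR adjusted p = 0.0231). There miR-3084-3p had a log2 fold change of 0.77 ± 0.40 (SE; edgeR adjusted p = 0.1615).

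**Figure D2:**
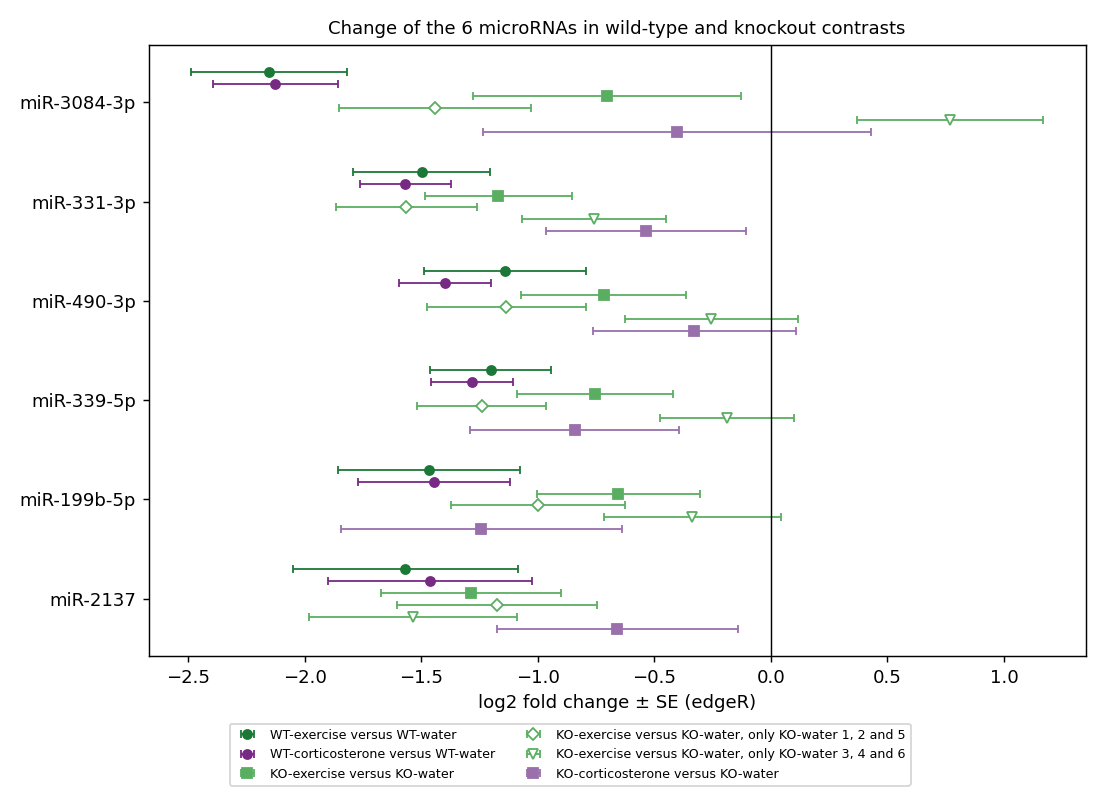
The log2 fold change of each microRNA (x axis, bars are ± SE from edgeR) in each contrast, 6 rows per microRNA. The exercise contrast in the knockout is drawn against all 6 KO-water libraries (squares), KO-water 1, 2 and 5 (open diamonds) and KO-water 3, 4 and 6 (open triangles). For miR-3084-3p the diamond stands at -1.44 and the triangle at 0.77.

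KO-corticosterone had only 2 libraries and shares the KO-water libraries with the exercise contrast. Against all 6 KO-water libraries, 0 of the 6 were called lower, as were 0.0% of 576 microRNAs tested (edgeR), while 0.521% and none of the 6 were called higher. None of the 6 had an unadjusted p below 0.05, where 40 of the 576 did. DESeq2 called none of the 6, where it called 0.347% of the 576 lower. Limma-voom called none of the 6 and 0 of the 576 lower. In KO-corticosterone, miR-3084-3p measured 6.89 and 11.2 CPM, miR-331-3p 19.4 and 27.3, miR-490-3p 27.6 and 17.1, miR-339-5p 85.3 and 64.7, miR-199b-5p 9.04 and 2.14, and miR-2137 3.44 and 10.7. The 6 fold changes were below 0, from -0.33 for miR-490-3p to -1.24 for miR-199b-5p, with SEs of 0.43 to 0.83. Their median was -0.60, where the median over all 576 was itself below 0, at -0.12. Against KO-water 1, 2 and 5 alone, miR-339-5p was called lower (-1.30 ± 0.24 (SE), edgeR adjusted p = 0.0225), 1 of 6 where 3.54% of 565 were. Against KO-water 3, 4 and 6 alone none of the 6 was called lower, where 8.84% of 543 were lower and 10.3% higher. There 1 of the 6 had an unadjusted p below 0.05, where 204 of the 543 did. MiR-3084-3p (1.16) and miR-490-3p (0.21) had fold changes above 0 against KO-water 3, 4 and 6.

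Between the KO-water sets, every KO-water 3, 4 and 6 library lay below every KO-water 1, 2 and 5 library for 4 of the 6: miR-3084-3p, miR-331-3p, miR-490-3p and miR-339-5p. Over all 532 microRNAs tested, 33.1% did so, so such a gap was common. The log2 fold changes of KO-water 3, 4 and 6 against KO-water 1, 2 and 5, given as a description, were -2.20 for miR-3084-3p, -1.05 for miR-339-5p, -0.88 for miR-490-3p, -0.78 for miR-331-3p, -0.67 for miR-199b-5p and 0.36 for miR-2137.

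Set against WT-water, the KO-water libraries of the genotype table (3, 4 and 6) were lower for 5 of the 6, with 27.9% of all 581 microRNAs called lower and 33.0% higher. These 5 did not overlap with WT-water either, against 29.4% of all tested. WT-water chose the 6, so this too is a description: miR-3084-3p differed by -2.81 ± 0.40 (SE), miR-199b-5p by -1.28 ± 0.40, miR-339-5p by -1.18 ± 0.16, miR-490-3p by -0.97 ± 0.21 and miR-331-3p by -0.55 ± 0.19, while miR-2137 stood at 0.28 ± 0.48. With KO-water 1, 2 and 5 in their place, the fold changes lay between -0.72 and 0.12, with a median of -0.23. That comparison had 0 calls among 587 microRNAs (edgeR), with 24 at an unadjusted p below 0.05 and none of them among the 6. With all 6 KO-water libraries the median of the 6 was -0.63, and edgeR called 0 of 545 microRNAs, with 179 at an unadjusted p below 0.05, 4 of them among the 6.

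The opposite arms of the same hairpins stood closer to 0 in wild type, given here as a description since these contrasts chose the 6. MiR-331-5p had log2 fold changes of 0.20 ± 0.25 (SE) with exercise and 0.08 ± 0.27 with corticosterone. MiR-199b-3p stood at 0.26 ± 0.26 with exercise and 0.38 ± 0.30 with corticosterone. MiR-3084-5p stood at -0.54 ± 0.27 with exercise, where it was not called, and at -0.72 ± 0.26 with corticosterone, where it was called lower. MiR-199a-5p, the corresponding arm of the related miR-199a hairpins, stood at -0.29 ± 0.36 with exercise and 0.13 ± 0.28 with corticosterone.

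The ratio of the picked arm to the opposite arm is formed within a library and so does not depend on how libraries are scaled. It was computed from counts with 0.5 added, for the 3 hairpins whose arms both averaged at least 10 counts. The opposite arms of miR-339-5p and miR-490-3p averaged 7.13 and 3.32 counts and were left out. In wild type all 3 ratios lay below the WT-water range in every treated library, under exercise (11.5% of 165 hairpins did not overlap, in either direction) and under corticosterone (15.8%). The picked arms were chosen for being lower in these same libraries, so the wild-type ratios are a description with no test.

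The ratio of miR-3084-3p to miR-3084-5p had a median of 0.266 in WT-exercise (0.129 to 0.649) and 0.363 in WT-corticosterone (0.225 to 0.623), against 0.934 in WT-water (0.794 to 1.02). That of miR-331-3p to miR-331-5p had a median of 1.52 in WT-exercise (0.371 to 1.92) and 1.53 in WT-corticosterone (0.657 to 2.26), against 4.56 in WT-water (3.27 to 5.98). MiR-199b-5p to miR-199b-3p had a median of 0.582 in WT-exercise (0.373 to 1.30) and 0.714 in WT-corticosterone (0.259 to 1.19), against 2.01 in WT-water (1.77 to 3.24). The median miR-199b ratio thus lay below 1 after either treatment and above 1 in WT-water. Its denominator carries the uncertain division of reads between miR-199b-3p and the identical miR-199a-3p, so it may not be the ratio of that hairpin's arms.

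In the knockout, the mean log2 ratio for miR-199b was -1.15 ± 0.57 in KO-exercise and 0.36 ± 0.92 in KO-water (SD, n = 5 and 6), a difference of -1.503 (two-sided exact permutation p = 0.0216, 0.170 after Benjamini-Hochberg adjustment over 165 hairpins). For miR-331 it was 0.54 ± 0.80 in KO-exercise and 1.69 ± 1.06 in KO-water, a difference of -1.15 (exact permutation p = 0.0866, adjusted 0.366). For miR-3084 it was -1.68 ± 0.78 in KO-exercise and -1.44 ± 1.22 in KO-water, a difference of -0.24 (exact permutation p = 0.701, adjusted 0.890). None of the 3 passed the adjusted threshold, as was so for all 165 hairpins (0.0% called). At an unadjusted p below 0.05 there was 1 of the 3. The share of all 165 at that threshold is not given here, so this does not set miR-199b apart from other hairpins. None of the 3 was without overlap, where 5.45% of 165 were, and the smallest p that 5 against 6 libraries can give is 0.00433. The miR-199b ratio again carries the uncertain division of reads between miR-199b-3p and miR-199a-3p.

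Against KO-water 1, 2 and 5 alone, the KO-exercise ratios of all 3 hairpins lay wholly below, where 24.8% of 165 did not overlap. The differences in mean log2 ratio were -1.27 for miR-3084, -1.96 for miR-331 and -2.23 for miR-199b, each at the smallest p the design allows (exact permutation p = 0.0357, adjusted 0.144). So few libraries can hardly pass the adjustment over 165 hairpins, so the adjusted value decides nothing here. Against KO-water 3, 4 and 6 none of the 3 stood apart, where 38.8% of 165 did, and the miR-3084 ratio differed by 0.79. KO-water 3, 4 and 6 lay wholly below KO-water 1, 2 and 5 for all 3 ratios, where 62.4% of 165 did not overlap. MiR-199b-3p itself stood at 0.83 ± 0.27 (SE) with exercise against all KO-water libraries (edgeR adjusted p = 0.137) and 1.02 ± 0.40 with corticosterone (edgeR adjusted p = 0.589). Against KO-water 1, 2 and 5 it was called higher, at 1.19 with exercise (edgeR adjusted p = 0.0177), where 10.5% of all were called higher, and at 1.44 with corticosterone (edgeR adjusted p = 0.0405), where 3.54% were. Against KO-water 3, 4 and 6 it was called in neither, at 0.38 with exercise (edgeR adjusted p = 0.295) and 0.69 with corticosterone (edgeR adjusted p = 0.177). In KO-corticosterone the median ratios were 0.426 for miR-3084, 1.70 for miR-331 and 0.263 for miR-199b.

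**Figure D3:**
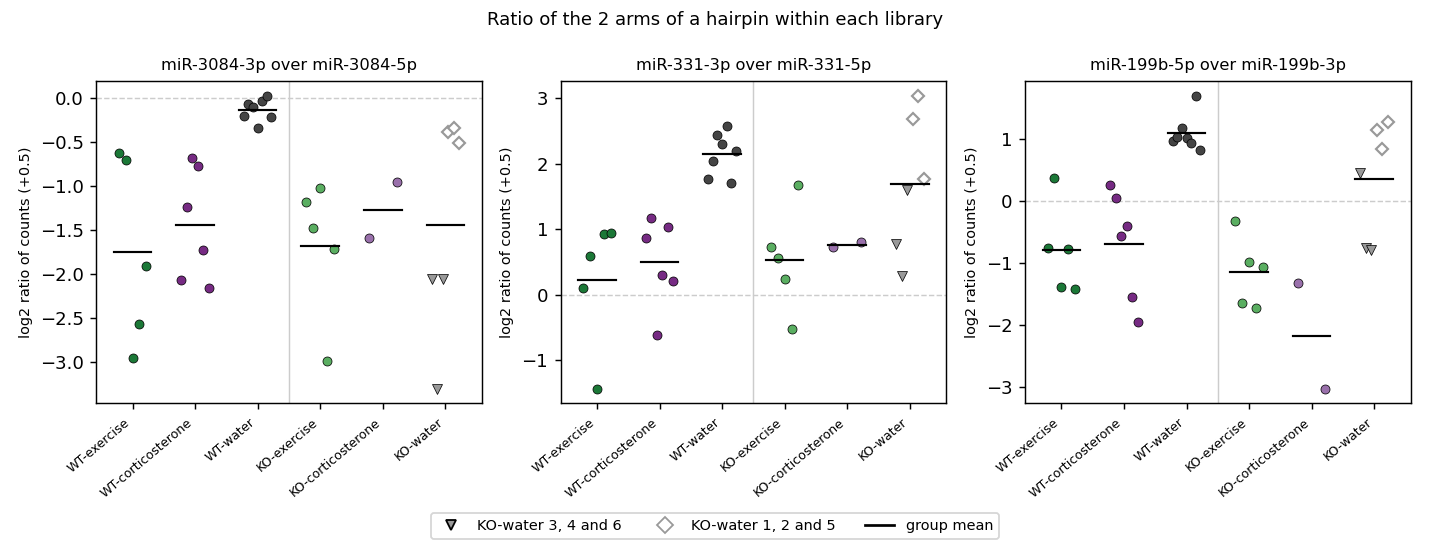
Log2 ratio of the picked arm to the opposite arm of 3 hairpins (y axis, counts with 0.5 added) in each library by group (x axis), with black bars for group means. WT-water lies above both treated wild-type groups in every panel. The KO-water triangles (3, 4 and 6) lie below the open diamonds (1, 2 and 5) for all 3 hairpins.

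Within groups, the 6 did not vary as one. Deviations of log2 CPM from the group mean were correlated over the 25 libraries outside KO-water, for 15 pairs. They are given as a description. The 3 highest correlations joined miR-490-3p, miR-339-5p and miR-199b-5p. MiR-490-3p and miR-339-5p had r = 0.85 and rho = 0.84, and r was 0.82 without the 2 libraries farthest from the median. It was 0.87 within letter G (16 libraries) and 0.78 within letter H (9). MiR-339-5p and miR-199b-5p had r = 0.72 and rho = 0.70, with r = 0.61 without 2 libraries, 0.70 within G and 0.84 within H. MiR-490-3p and miR-199b-5p had r = 0.70 and rho = 0.68, with r = 0.61 without 2 libraries, 0.65 within G and 0.77 within H. Among all pairs of the 464 microRNAs averaging at least 10 CPM, taken from different hairpins, 1.37% correlated at least as highly as the first of these pairs, 5.63% as the second and 6.42% as the third. For the other 12 pairs r lay between -0.17 and 0.42.

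**Figure D4:**
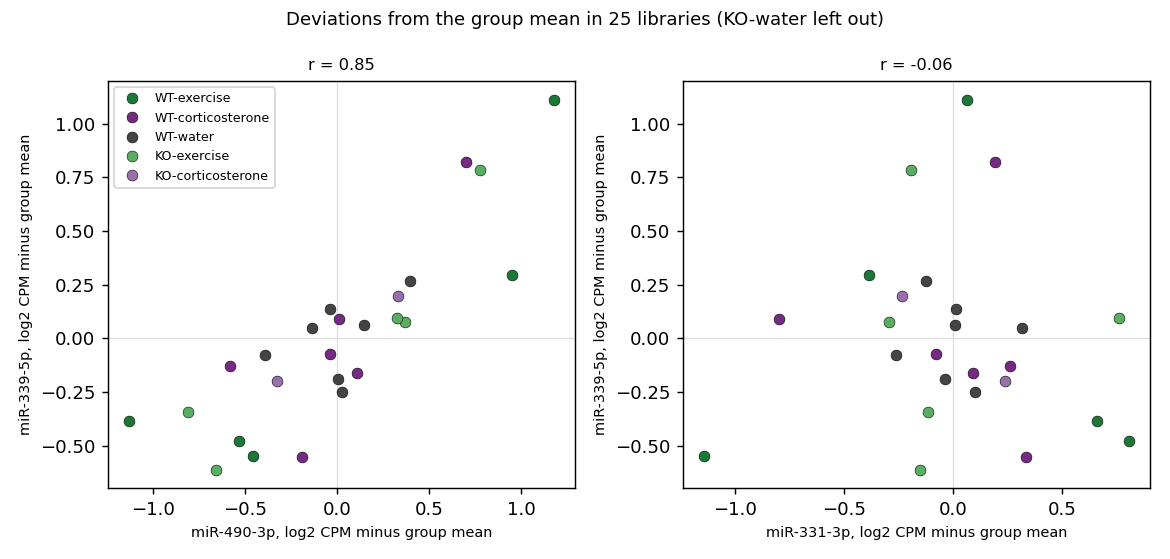
Deviations of log2 CPM from the group mean in the 25 libraries outside KO-water, for miR-339-5p (y axis) against miR-490-3p (left, x axis) and against miR-331-3p (right, x axis), coloured by group. The left panel rises together, with r = 0.85, and the right panel shows no common trend, with r = -0.06.

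The patterns most like each member were taken as the 2 highest Pearson r of these deviations over all 31 libraries, among microRNAs averaging at least 10 CPM, and are given as a description. For miR-339-5p they were miR-22-3p (r = 0.93) and miR-181c-5p (0.93), and for miR-490-3p miR-582-5p (0.87) and miR-339-5p (0.87). MiR-199b-5p was nearest miR-451a (0.78), a microRNA of red blood cells, and miR-133a-3p (0.75), a muscle microRNA. MiR-3084-3p was nearest the 2 arms of miR-677 (0.77 each), miR-331-3p nearest miR-193b-3p (0.66) and miR-26b-3p (0.53), and miR-2137 nearest miR-100-5p (0.57) and miR-92b-5p (0.55). In KO-exercise against KO-water, miR-100-5p was called lower at -1.39 ± 0.24 (SE; edgeR adjusted p = 0.0071). None of the other nearest patterns was called there, with log2 fold changes from -0.79 for miR-22-3p to 0.72 for miR-677-5p. These correlations include the division of the KO-water libraries.

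Marker lists of other cell types moved in the same libraries. The summed level of 3 oligodendrocyte microRNAs was 1802 to 6787 CPM in WT-exercise, 1853 to 6639 CPM in WT-corticosterone and 5642 to 7420 CPM in WT-water. Of the 3, miR-338-3p was called lower under each wild-type treatment, and no marker of any list was at 0 in all libraries of a group. The 4 red blood cell microRNAs summed to 473 to 1878 CPM in WT-exercise, 510 to 1211 CPM in WT-corticosterone and 1164 to 2433 CPM in WT-water, with miR-451a called lower under each treatment and 2 of the 4 called higher with corticosterone. The 4 microglia and immune microRNAs went the other way, at 2493 to 10789 CPM in WT-exercise, 2568 to 8170 CPM in WT-corticosterone and 2290 to 3282 CPM in WT-water, with 3 of 4 called higher with exercise and 4 of 4 with corticosterone. The 4 vessel microRNAs summed to 14808 to 24492 CPM in WT-exercise, 13882 to 20890 CPM in WT-corticosterone and 12592 to 19042 CPM in WT-water, with 2 of 4 called higher under each treatment. The 4 neuronal microRNAs summed to 322460 to 395610 CPM in WT-exercise, 308340 to 422700 CPM in WT-corticosterone and 323970 to 412080 CPM in WT-water. Of these, miR-128-3p was called lower with exercise (-0.70) and with corticosterone (-0.59), and miR-138-5p higher with corticosterone (0.52). The choroid plexus list summed to 5798 to 9974 CPM in WT-exercise, 6319 to 29767 CPM in WT-corticosterone and 5571 to 22281 CPM in WT-water, with 1 of 4 called higher under each treatment.

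The KO-water sets parted in these sums as well. KO-water 3, 4 and 6 against KO-water 1, 2 and 5 had 1654 to 2182 against 4801 to 5830 CPM of the oligodendrocyte list and 531 to 634 against 1209 to 1583 CPM of the red blood cell list. They had 6706 to 8959 against 2368 to 3043 CPM of the microglia and immune list and 22319 to 28026 against 11290 to 15129 CPM of the vessel list. None of these 4 sums overlapped between the sets, while the neuronal, mesenchymal and choroid plexus sums did. The red blood cell list did not move as one. In it miR-451a (log2 fold change -1.33) and miR-144-3p (-1.25) were lower in KO-water 3, 4 and 6, and miR-486a-5p (1.52) and miR-144-5p (1.19) higher. In the oligodendrocyte list miR-219a-5p stood at -3.72 and miR-338-3p at -1.81, while miR-219a-2-3p stood at 0.18. The part of these cell types in the results was not tested.

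These sums also mark out single libraries. WT-exercise 2 had 6787 CPM of the oligodendrocyte list and WT-corticosterone 2 had 6639 CPM, both within the WT-water range. Also within the WT-water ranges were their red blood cell sums (1878 and 1211 CPM) and their microglia and immune sums (2493 and 2568 CPM). These libraries were the highest of their groups for 3 of the 6: miR-339-5p (183 and 146.8 CPM), miR-490-3p (36.6 and 24.9 CPM) and miR-199b-5p (20.7 and 17.4 CPM). The share of all microRNAs that were highest there is not given here, and a link to any list was not tested. MiR-2137 was highest of its group in WT-exercise 2 (6.89 CPM) and not in WT-corticosterone 2 (3.28 CPM). In the same libraries miR-331-3p stood at 12.2 and 14.1 CPM and miR-3084-3p at 9.01 and 5.63 CPM, all below every WT-water library. The 4 mesenchymal microRNAs, which include miR-199a-5p, summed to 43.9 to 77.1 CPM in WT-exercise, 49.9 to 105.2 CPM in WT-corticosterone and 28.1 to 83.7 CPM in WT-water, with 0 of the 3 tested called in either contrast.

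In base composition 4 of the 5 with a sequence stood at percentile 69.3 or higher of the measured microRNAs in GC content. GC content was 61.9% for miR-331-3p (percentile 78.1), 59.1% for miR-490-3p (69.3), 65.2% for miR-339-5p (87.6) and 85.7% for miR-2137 (99.5). It was 52.4% for miR-3084-3p, at percentile 50.4 of the measured microRNAs. The median was 47.6% among the 474 microRNAs tested with exercise that had a sequence. Over those 474 the median log2 fold change with exercise was -0.093 for the 164 lowest in GC content, 0.05 for the 154 in the middle and 0.0047 for the 156 highest. In the same order 13, 21 and 31 were called lower with exercise, and 25, 36 and 29 higher. With corticosterone 31 of 160, 25 of 153 and 29 of 157 were called lower, and 31, 39 and 39 higher. A link to GC content was not tested. Between KO-water 3, 4 and 6 and KO-water 1, 2 and 5 the median log2 fold change was -0.42 for the 154 lowest, 0.07 for the 180 in the middle and 0.51 for the 127 highest. The letters CCUG, read on the microRNA strand only, occur within bases 1 to 9 of miR-331-3p, miR-490-3p and miR-339-5p and in 4.22% of the 474, a motif picked after the sequences were seen. Of the other 17 that hold it, 1 was called lower and 1 higher with exercise, with a median of 0.21.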

How the data were processed

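The authors deposited read counts, whole numbers per mature microRNA, in 5 tables, each for a pair of groups. The submitters' processing notes name cutadapt 2.3, BWA, Subread, featureCounts, limma 3.54.1 and GRCm38 (mm10). Use of strand in counting is not stated there. Libraries present in several tables had identical counts (24 of 24), and no replicates agreed within sampling noise. The genotype table's remaining knockout column, a KO-exercise sample by its labels, was left out.

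Each contrast was fitted over all microRNAs of its table with edgeR 4.0.16 (R 4.3.3): filterByExpr, TMM, robust quasi-likelihood, Benjamini-Hochberg, called below 0.05, SEs from the F statistic. DESeq2 1.42.0 and limma-voom (limma 3.58.1) were alternatives. Procedures were tested on simulated data. Named microRNAs are the 6, their opposite arms, seed relatives, neighbours within 10 kb and the 2 nearest patterns of each. The members and lists were chosen with earlier results of these data known.

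Arm ratios were compared by exact permutation over libraries. Their p-values were first adjusted over the 3 members' ratios alone, which called 0 against all KO-water libraries and 3 against KO-water 1, 2 and 5. After those calls had been seen, the adjustment was changed to run over all 165 hairpins with both arms averaging at least 10 counts, because the 3 had been chosen with results known. That called 0 in both comparisons and is the version reported. Correlations between the 6 were also tested by permutation with adjustment over their 15 pairs; those p-values are not reported, since they were adjusted over the chosen list alone.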

Additional observations from a re-analysis of the deposited data

Results flagged for a closer look

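In 3 of 30 sets of 1 microRNA in 1 group, a single library stood apart from the rest of its group by more than Dixon's 95% limit. Chance flags about 1 in 20 such sets. MiR-3084-3p was 56.99 CPM in WT-water 6, where the other WT-water libraries lay between 22.58 and 36.99 CPM. MiR-331-3p was 23.53 CPM in KO-exercise 5, where the others lay between 10.86 and 12.41 CPM. Without KO-exercise 5 its log2 fold change against KO-water was -1.51, with an edgeR adjusted p of 0.0418. MiR-339-5p was 146.8 CPM in WT-corticosterone 2, where the others lay between 56.28 and 88.4 CPM.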

How the results depend on the processing

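With exercise in the knockout, 0 of the 6 were called lower. The share of all microRNAs called lower was 0.956%. DESeq2 called 2 (miR-331-3p and miR-2137; 3.63% of all). MiR-331-3p was the 1 called with DESeq2 size factors in edgeR (1.72%), a minimum mean of 10 CPM (2.16%) or a joint fit of 6 groups (2.55%). Against KO-water 1, 2 and 5 only there were 4 and against KO-water 3, 4 and 6 only 1. Leaving out 1 library gave 0 to 1, with 1 (miR-331-3p) without KO-exercise 5 (0.933%) or KO-water 4 (0.954%). With corticosterone in the knockout the count was 0, 1 against KO-water 1, 2 and 5 only, and 0 to 0 on leaving out 1 library. The cause was not tested.

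The median of the 6 with exercise in wild type was -1.48, -1.07 within letter G and -2.17 within letter H. Between KO-water and WT-water it was -1.08, -1.39 without scaling factors, -0.63 with all KO-water libraries, -0.64 in the joint fit, which also takes in all KO-water libraries, and -0.23 with KO-water 1, 2 and 5 only. Leaving out 1 library gave -1.36 to -1.07 there, -1.73 to -1.31 for exercise and -1.63 to -1.38 for corticosterone in wild type. The count of arm ratios called was 0 to 0 on leaving out 1 library, which says nothing of stability, since so few libraries can hardly pass the adjustment over 165 hairpins. Adjusting over the 3 members' ratios alone, as first done, gave 3 calls against KO-water 1, 2 and 5 in place of 0.

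Signs turned as follows. MiR-3084-3p turned to 0.77 with exercise against KO-water 3, 4 and 6, and with corticosterone to 1.16 against those, 0.24 without KO-water 2 (-0.76 to 0.24 on leaving out 1 library) and 0.0084 with counts thinned to the lowest total, a setting chosen after seeing the data. MiR-490-3p turned to 0.21 with corticosterone against KO-water 3, 4 and 6. Between KO-water and WT-water, miR-331-3p turned to 0.12 with KO-water 1, 2 and 5, and miR-2137 to -0.052 without scaling, -0.060 in the joint fit, -0.026 with all KO-water libraries, -0.21 with KO-water 1, 2 and 5, and -0.14 without KO-water 4 (-0.14 to 0.40 on leaving out 1 library). The miR-3084 arm ratio turned to 0.0908 without KO-exercise 4 (-0.61 to 0.0908 on leaving out 1 library) and 0.79 against KO-water 3, 4 and 6.

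The deviations of same-numbered KO-exercise and KO-water libraries correlated with both signs, at -0.30 to 0.50. Differently numbered libraries were not compared, so these values cannot settle whether the numbers pair the libraries. With the replicate number as a block, on the 10 libraries whose number occurs in both groups, 0 of the 6 were called with exercise in the knockout, and 2 microRNAs in all were called lower and 5 higher, against 5 and 16 without it. In the block for exercise in wild type, 11 microRNAs were lower and 26 higher, against 70 and 110 without it, and 4 of the 6 were called. In the block miR-2137 was -0.20 between KO-water and WT-water.

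Intervals and fits cover these libraries only. The 2 KO-corticosterone libraries and counts of 1 to 51 for miR-2137 limit what was detectable.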
